A study of Mus musculus with 8 samples.

Results

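Lipid-associated macrophages are macrophages that gather around dying, fat-laden cells in obese adipose tissue and in the fatty, inflamed liver, and they take up lipid and cell debris. They are recognised by the surface receptor TREM2, which binds lipids and lipoproteins and signals through the adaptor DAP12, together with a set of lysosomal, lipid-handling and secreted proteins. In the steatotic liver they are known to arise largely from recruited monocytes, while the resident macrophages, the Kupffer cells, carry markers such as CLEC4F and TIM4. The 10 genes described here are Trem2, Gpnmb, Cd9, Spp1, Lpl, Fabp5, Cd63, Itgax, Tyrobp and Adgre1. They were taken by gene symbol, each from 1 row of a table of 56691 genes, and all 10 had enough counts to be tested.

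RNA of whole liver was sequenced from C57BL/6J wild-type mice, 4 libraries after injection of plive-Con, a control plasmid, and 4 after injection of plive-Tet1, a plasmid meant to overexpress Tet1 in hepatocytes. Both plasmids were delivered by hydrodynamic tail vein injection, in which a large volume drives DNA into liver cells, and both groups were fed HFD-CDAA, a diet high in fat, without choline and with defined amino acids, for 4 weeks, starting when the mice were 6 weeks old. No group without diet or without injection was analysed here, so every value is a level within this disease model. The sources used here do not give the promoter of the plasmids. The labels do not say that each library is a separate mouse, and p-values therefore measure the spread between these libraries. Groups followed the sample titles, because 3 plive-Tet1 libraries (2, 3 and 4) carry Tet2, Tet3 or Tet4 in their treatment label.

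The libraries held from 15885113 to 19850800 counts, and the 10 genes had from 386 to 10077 counts per gene and library, so counting error was small beside the differences between libraries. Tet1 itself had 1, 9, 6 and 5 counts in plive-Con replicates 1 to 4 and 9, 8, 12 and 5 in plive-Tet1 replicates 1 to 4, too few to check the overexpression. Markers of hepatocytes, the main cells of the labelled tissue, were high: their 9 genes summed to between 69001 and 98645 CPM (CPM: each count divided by the TMM-scaled sum of the tested genes, scaled as in edgeR) in a library. Each of the 10 general macrophage markers had at least 204 counts in every library. plive-Con 4 stood apart from the other libraries on the first principal component of all genes, at 35.5 where the others lay between -17.6 and 9.999. Values without it are given for Trem2, Gpnmb, Lpl and Itgax, and for the median of the 10 genes.

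All 10 genes had a higher mean with plive-Tet1, by between 1.04-fold for Cd63 and 1.64-fold for Gpnmb, but none passed the test. The quasi-likelihood test of edgeR, with Benjamini-Hochberg adjusted p-values, called 0 of the 10 genes at an adjusted p of 0.05, where it called 0% of the 14533 genes tested in either direction. At an unadjusted p under 0.05 it had 2 of the 10, Trem2 and Gpnmb, both higher, where 1.91% of all genes were higher and 2.16% lower at that level. DESeq2 called 0 of the 10, where it called 0.039% of genes higher and 0.0468% lower. At an unadjusted p under 0.05 DESeq2 had 2 of the 10, against 578 of 14533 genes. limma called 0 as well, both with voom and on log2(FPKM + 0.5). It had 3 of the 10 under that unadjusted value in each, against 554 and 605 of 14533 genes. On the log2 scale, with plive-Tet1 set over plive-Con, the 10 genes had a median fold change of 0.40, beside 0.01 over all genes tested. In none of the 10 did all 4 plive-Tet1 libraries lie above all 4 plive-Con libraries, which 1.3% of all genes did. In bulk liver RNA, fewer cells of a type and less RNA per cell cannot be told apart.

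**Figure D1:**
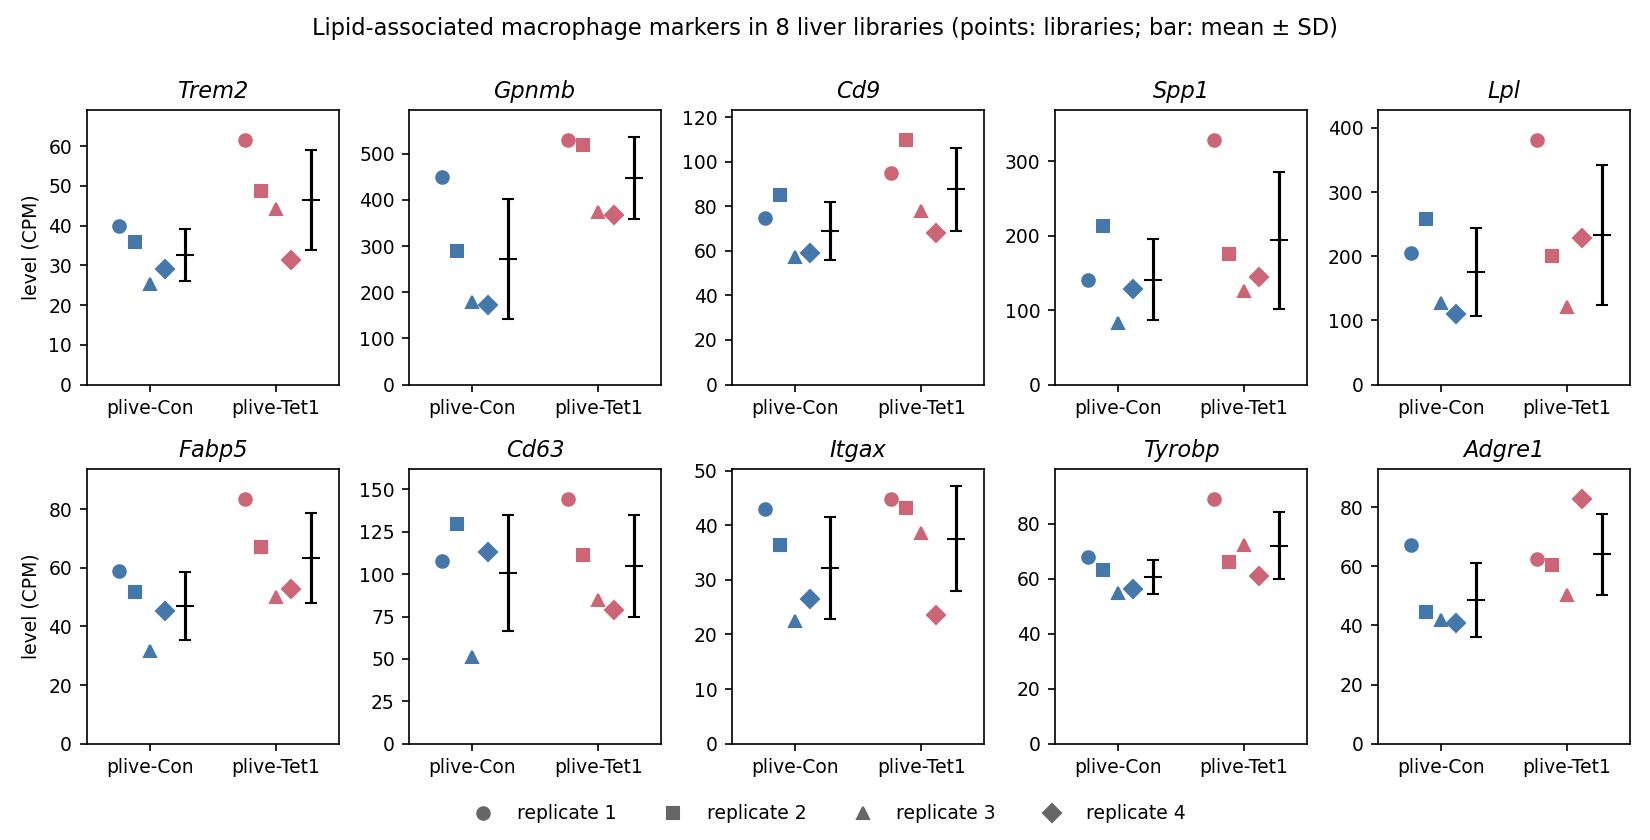
Level of each of the 10 genes in CPM (vertical axes, from 0) in the 4 plive-Con libraries (blue) and the 4 plive-Tet1 libraries (red), one symbol per replicate number, with the mean and SD of each group in black. The groups overlap in every panel, plive-Con 3 is the lowest library in 7 panels and plive-Tet1 1 is the highest in 8.

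Trem2 is the receptor that gives these macrophages their other name. It measured 39.9, 35.9, 25.4 and 29.1 CPM in plive-Con replicates 1 to 4 and 61.6, 48.7, 44.1 and 31.2 CPM in plive-Tet1 replicates 1 to 4. Of the plive-Tet1 libraries, 3 were above every plive-Con library, and plive-Tet1 4 lay among the plive-Con values. The group means were 32.6 ± 6.55 and 46.4 ± 12.5 CPM (SD, n = 4 each), a log2 fold change of 0.51 ± 0.20 (SE) with an edgeR unadjusted p of 0.0233 and an adjusted p of 1.00. Without plive-Con 4 it was 0.46, with an edgeR unadjusted p of 0.0518. Among the fits with 1 library left out it was lowest without plive-Tet1 1, at 0.34, and highest without plive-Tet1 4, at 0.66. With all 8 libraries the 95% interval of the fold ran from 1.06 to 1.91. The gene (ENSMUSG00000023992) lies on GRCm39 chromosome 17 from 48653429 to 48661175 on the plus strand.

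Tyrobp encodes DAP12, the transmembrane adaptor through which TREM2 and other myeloid receptors signal to the kinase SYK. It measured 67.8, 63.3, 54.7 and 56.3 CPM with plive-Con and 89.0, 66.0, 72.2 and 60.8 CPM with plive-Tet1, in replicate order. The plive-Tet1 libraries 1 and 3 were above all controls and the other two were not. The means were 60.5 ± 6.15 and 72.0 ± 12.3 CPM (SD, n = 4 each), and the log2 fold change was 0.25 ± 0.14 (SE, edgeR adjusted p 1.00), or 0.13 without plive-Tet1 1. Of the 10 genes it varied least, 1.63-fold between the lowest and the highest of the 8 libraries. Tyrobp (ENSMUSG00000030579) is on chromosome 7 from 30113185 to 30117010, plus strand. On the FPKM scale, which divides by exonic length, Trem2 stood at 7.93, 7.66, 6.27 and 6.97 per 100 of Tyrobp in the plive-Con libraries and at 9.34, 9.94, 8.24 and 6.93 in the plive-Tet1 libraries. This ratio was highest in plive-Tet1 1, 2 and 3, while plive-Tet1 4 was within the plive-Con range.

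Gpnmb, which encodes a transmembrane glycoprotein of lysosome-rich cells, had the highest fold of the 10 genes. It measured 450.3, 289, 179 and 172 CPM in plive-Con replicates 1 to 4 and 530.5, 518, 373 and 367 CPM in plive-Tet1 replicates 1 to 4. Of the 4 plive-Con libraries, 3 were below all plive-Tet1 libraries, but plive-Con 1 was above plive-Tet1 3 and 4. The means were 273 ± 130 and 447 ± 89.4 CPM (SD, n = 4 each) and the log2 fold change was 0.71 ± 0.27 (SE), with an edgeR unadjusted p of 0.0211 and an adjusted p of 1.00. The fold of 1.64 had a 95% interval from 1.09 to 2.47. It was 1.07 on the log2 scale without plive-Con 1, 0.54 without plive-Con 3 and 0.55 without plive-Con 4, none past the test. With no filter on low counts, which let 28149 genes in, Gpnmb passed the test, with an edgeR adjusted p of 0.00525. In that fit 132 genes passed, and the prior degrees of freedom were 799, against 6.87 with the filter. The gene (ENSMUSG00000029816) lies on chromosome 6 from 49013480 to 49047863, plus strand.

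Gpnmb differed more among the plive-Con libraries than among the plive-Tet1 libraries, with no test of that difference. plive-Con 1 had 2.62 times the level of plive-Con 4, while the plive-Tet1 libraries differed 1.45-fold.

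The start regions of 6 of the 10 genes were found in a RefSeq table of another build (GRCm38.p6), as 7 windows of 250 bases before to 50 after an annotated start. They are shown for Trem2 and Gpnmb, the genes with the smallest p, for Spp1, the gene with the widest spread, and for the integrin gene Itgax, whose levels correlated with those of Trem2 within the groups at 0.95. All 4 are on the plus strand, at chr17:48346151-48346450, chr6:49036268-49036567, chr5:104434861-104435160 (the first of a pair of Spp1 starts) and chr7:128129300-128129599. Capitals mark matches to 5 short motifs of factors known in macrophages, searched on both strands.
Trem2: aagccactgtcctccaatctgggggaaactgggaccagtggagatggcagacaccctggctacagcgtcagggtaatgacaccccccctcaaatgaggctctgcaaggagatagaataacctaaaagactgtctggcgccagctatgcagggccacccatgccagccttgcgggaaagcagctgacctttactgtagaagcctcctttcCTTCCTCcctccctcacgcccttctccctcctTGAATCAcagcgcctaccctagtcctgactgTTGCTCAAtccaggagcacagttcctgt
Gpnmb: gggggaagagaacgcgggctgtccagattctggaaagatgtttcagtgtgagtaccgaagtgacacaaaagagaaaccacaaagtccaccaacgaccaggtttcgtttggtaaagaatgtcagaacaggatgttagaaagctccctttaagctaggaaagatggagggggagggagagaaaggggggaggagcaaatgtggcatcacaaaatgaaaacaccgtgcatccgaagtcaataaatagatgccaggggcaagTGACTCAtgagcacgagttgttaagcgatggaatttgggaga
Spp1: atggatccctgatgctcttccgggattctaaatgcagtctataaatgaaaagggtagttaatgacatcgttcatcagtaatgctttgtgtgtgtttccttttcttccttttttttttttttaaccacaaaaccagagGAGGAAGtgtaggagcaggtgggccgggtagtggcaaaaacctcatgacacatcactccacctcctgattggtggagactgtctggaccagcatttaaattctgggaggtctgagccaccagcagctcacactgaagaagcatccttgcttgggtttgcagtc
Itgax: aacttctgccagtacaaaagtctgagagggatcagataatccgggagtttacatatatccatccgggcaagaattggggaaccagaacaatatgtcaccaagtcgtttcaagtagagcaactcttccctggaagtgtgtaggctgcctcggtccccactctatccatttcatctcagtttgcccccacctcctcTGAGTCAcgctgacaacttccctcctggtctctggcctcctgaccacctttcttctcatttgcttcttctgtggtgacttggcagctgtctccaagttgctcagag
The AP-1 motif TGANTCA was matched in 3 of the 7 windows, at -9 from the start in Trem2, at 9 in Gpnmb and at -56 in Itgax, where 7.81% of 32851 windows of the table hold it. The PU.1 motif GAGGAAG was matched in 3 of 7, at -41 in Trem2 (on the minus strand), at -113 in Spp1 and at -60 in Cd63 (minus strand), where 13.6% of windows hold it. The C/EBP motif TTGCNNAA was found in Trem2 at 23 and in the second window of Spp1, and 10.8% of windows have it. The M-box of MITF, CATGTG, was matched in Cd9 alone (14.2% of windows), and the E-box CACGTG of MITF and TFE factors in 0 of 7 (7.15%). No matches overlapped each other. A match describes the letters of the window and is no evidence of binding.

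Cd9 and Cd63 encode tetraspanins, membrane proteins of the cell surface and of late endosomes that are made by many cell types. Cd9 measured 74.6, 84.8, 57.2 and 59.1 CPM with plive-Con and 94.8, 110, 78.0 and 67.9 CPM with plive-Tet1. Its plive-Tet1 libraries 1 and 2 were above all controls, and the others were within the range of the controls. Cd9 had a log2 fold change of 0.35 ± 0.17 (SE, edgeR adjusted p 1.00), which was 0.21 without plive-Tet1 2. Cd63 differed least between the groups: it measured 108, 130, 51.1 and 113 CPM with plive-Con and 144, 111, 84.5 and 79.0 CPM with plive-Tet1. Only plive-Tet1 1 was above the highest control, and plive-Con 3 was far below the other controls. The log2 fold change of Cd63 was 0.06 ± 0.26 (SE, edgeR adjusted p 1.00), and it changed sign when 1 library was left out, to -0.18 without plive-Con 3 and -0.14 without plive-Tet1 1. A pseudogene, Cd63-ps, had 89 to 213 counts per library, and how reads were split between it and Cd63 is not known. Cd9 (ENSMUSG00000030342) lies on chromosome 6 from 125437229 to 125471754 on the minus strand and is overlapped by a pair of predicted genes with at most 4 counts. Cd63 (ENSMUSG00000025351) lies on chromosome 10 from 128736858 to 128748691, plus strand.

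Of 12 other tetraspanin genes tested, 8 had a higher and 4 a lower value, for a median of 0.08 in log2 fold change, and 0 passed the test (1 at an unadjusted p under 0.05). Tspan7 had -0.40 ± 0.15 and Tspan4 -0.43 ± 0.22 (SE).

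Spp1 encodes osteopontin, a secreted ligand of integrins and of CD44 that macrophages and bile duct cells both make. It varied most of the 10 genes, 3.99-fold over the 8 libraries: 141, 213, 82.4 and 128 CPM with plive-Con and 329, 175, 126 and 145 CPM with plive-Tet1. plive-Tet1 1 alone was above the highest control, and the other plive-Tet1 libraries were within the range of the controls. The means were 141 ± 54.0 and 194 ± 92.3 CPM (SD, n = 4 each). The log2 fold change of 0.46 ± 0.31 (SE, edgeR adjusted p 1.00) was 0.08 without plive-Tet1 1, 0.25 without plive-Con 3 and 0.73 without plive-Con 2. Spp1 (ENSMUSG00000029304) lies on chromosome 5 from 104582984 to 104588916, plus strand, and is overlapped by a predicted gene on the same strand with at most 3 counts.

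The bile duct markers were low beside Spp1. Their 10 genes summed to between 40.7 and 64.9 CPM in the plive-Con libraries and between 44.3 and 68.6 CPM in the plive-Tet1 libraries, and none was at 0 in all libraries. Krt19, the keratin that marks bile duct cells, measured 4.46, 5.06, 2.33 and 2.99 CPM with plive-Con and 4.37, 4.73, 3.37 and 2.13 CPM with plive-Tet1, with a log2 fold change of -0.02 ± 0.30 (SE). Of the 9 tested, 4 had a higher and 5 a lower value and 0 passed, with 0 at an unadjusted p under 0.05. Tspan8 had 0.52 ± 0.31. The part of bile duct cells in the level of Spp1 was not tested. Among 9 genes of osteopontin receptors, 6 were higher and 3 lower, with a median of 0.14 and 0 past the test or at an unadjusted p under 0.05. Itga5, an integrin chain, had 0.28 ± 0.15, Itgb3 -0.50 ± 0.28 and Cd44 0.15 ± 0.17.

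Lpl encodes lipoprotein lipase, which frees fatty acids from circulating triglyceride, and Fabp5 encodes a cytosolic carrier of fatty acids. Lpl measured 205, 258, 127 and 110 CPM with plive-Con and 382, 201, 121 and 228 CPM with plive-Tet1. The highest library was plive-Tet1 1 and the lowest was plive-Con 4, but plive-Tet1 3 lay below 3 of the controls. The log2 fold change was 0.41 ± 0.32 (SE, edgeR adjusted p 1.00). It was 0.06 without plive-Tet1 1, 0.24 without plive-Con 4, 0.26 without plive-Con 3 and 0.66 without plive-Con 2. Fabp5 measured 59.0, 51.8, 31.7 and 45.3 CPM with plive-Con and 83.5, 66.9, 49.97 and 52.7 CPM with plive-Tet1. Its plive-Tet1 libraries 1 and 2 were above every control. Its log2 fold change was 0.43 ± 0.20 (SE) with an edgeR unadjusted p of 0.0522 and an adjusted p of 1.00. It was 0.26 without plive-Con 3 and 0.27 without plive-Tet1 1. Lpl (ENSMUSG00000015568) lies on chromosome 8 from 69333143 to 69360100 and Fabp5 (ENSMUSG00000027533) on chromosome 3 from 10077608 to 10081667, both on the plus strand.

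Fat cells also make much Lpl. Adipoq, Lep, Plin1 and Retn, 4 of the 6 fat cell markers, were at 0 counts in every library. Of the other two, Cfd had at most 4 counts. Cidec, the only one tested, had means of 50.2 ± 34.7 and 47.9 ± 13.4 CPM (SD, n = 4 each, plive-Con first), a log2 fold change of -0.07 ± 0.36 (SE). The part of fat cells in the level of Lpl was not tested. Of 9 genes of LPL partners, 4 were higher and 5 lower, with a median of -0.02 and 0 past the test. At an edgeR unadjusted p under 0.05 were 2, both lower, where 2.16% of all genes were lower. Gpihbp1, which carries LPL to the capillary surface, measured 23.8, 19.9, 15.5 and 28.0 CPM with plive-Con and 15.3, 11.011, 11.4 and 16.4 CPM with plive-Tet1. Its log2 fold change was -0.69 ± 0.19 (SE), with an edgeR unadjusted p of 0.00365 and an adjusted p of 1.00. Apoc3, which encodes an inhibitor of the lipase, had -0.35 ± 0.13. Of the other fatty acid binding proteins, 4 of 6 were tested, with 2 higher and 2 lower and 0 past the test or at an unadjusted p under 0.05: Fabp1, the form of hepatocytes, had -0.18 ± 0.18 and Fabp2 -0.26 ± 0.21.

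Itgax encodes CD11c, an integrin chain of dendritic cells and of activated macrophages. It measured 43.0, 36.4, 22.4 and 26.6 CPM with plive-Con and 44.9, 43.2, 38.6 and 23.6 CPM with plive-Tet1, so plive-Tet1 4 was lower than all controls but plive-Con 3. A log2 fold change of 0.23 ± 0.23 (SE, edgeR adjusted p 1.00) resulted. It was 0.07 without plive-Con 3 and between 0.13 and 0.15 without plive-Con 4, plive-Tet1 1 or plive-Tet1 2, and 0.40 without plive-Con 1 or plive-Tet1 4. Its partner chain Itgb2 had 0.27 ± 0.18. On a list of 4 genes of this integrin family, Itgb2 among them, 3 were tested and higher. None was past the test or at an unadjusted p under 0.05. Itgam, of monocytes, had 0.40 ± 0.24. Dendritic cell markers had lower values in 9 of 10, with a median of -0.26 and 0 past the test (1 at an unadjusted p under 0.05). Xcr1 had -0.66 ± 0.30 and H2-Ab1 -0.38 ± 0.21, and the list summed to between 356 and 676 CPM with plive-Con and between 294 and 525 CPM with plive-Tet1. No dendritic cell marker was at 0 in all libraries, and their part in the level of Itgax was not tested. Itgax (ENSMUSG00000030789) lies on chromosome 7 from 127728719 to 127749829, plus strand.

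Adgre1 encodes F4/80, a surface receptor of mouse macrophages that Kupffer cells carry as well. Its order of libraries differed from that of the other 9 genes: 67.3, 44.6, 41.8 and 40.8 CPM with plive-Con and 62.4, 60.6, 50.3 and 82.8 CPM with plive-Tet1. Of those 9 it correlated most with Gpnmb, at 0.75 over the 8 libraries. The highest library was plive-Tet1 4, which was among the highest 4 libraries for 4 of the 10 genes, and plive-Con 1 stood above the other controls. Its log2 fold change was 0.40 ± 0.19 (SE), with an edgeR unadjusted p of 0.0532 and an adjusted p of 1.00. It was 0.60 without plive-Con 1 and 0.25 without plive-Tet1 4. Adgre1 (ENSMUSG00000004730) lies on chromosome 17 from 57665691 to 57790527, plus strand.

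**Figure D2:**
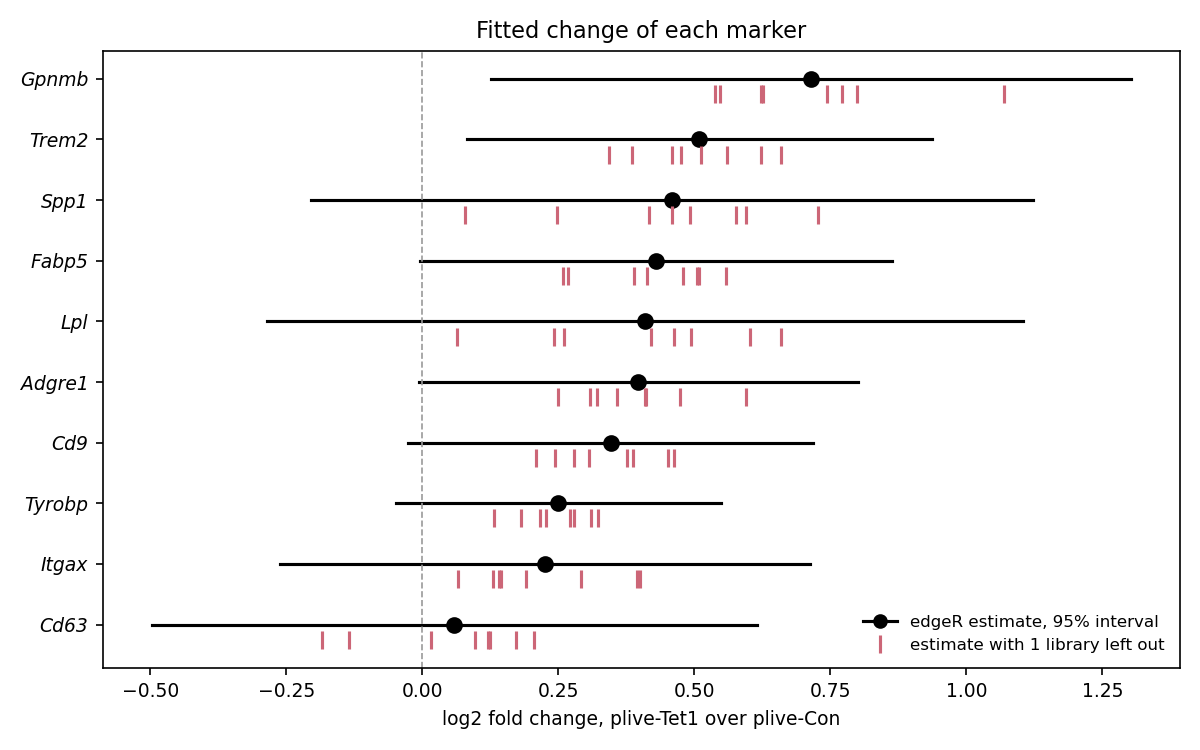
Horizontal axis, log2 fold change of the 10 genes with plive-Tet1 set over plive-Con, with the edgeR estimate and its 95% interval in black and the 8 estimates with 1 library left out as red ticks. All 10 estimates are above 0, the intervals of Gpnmb and Trem2 exclude 0 before adjustment for the genes tested, and 2 ticks of Cd63 are below 0.

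Which genes reached an unadjusted p under 0.05 turned on single libraries. There were 2 with all 8 libraries, but 0 without plive-Con 3, without plive-Con 4, without plive-Tet1 1 or without plive-Tet1 2. There were 4 without plive-Con 1, plive-Con 2 or plive-Tet1 3, and 5 without plive-Tet1 4. The count over all genes tested moved too, from 591 of 14533 with all 8 libraries. In the fits with 0 it was 689 of 14734, 505 of 14824, 601 of 14804 and 293 of 14692, in the order named. In the fits with 4 it was 725 of 14810, 710 of 14740 and 686 of 14712. Without plive-Tet1 4 it was 608 of 14699. The median log2 fold change of the 10 genes was 0.25 without plive-Con 3, 0.30 without plive-Con 4 and 0.20 without plive-Tet1 1, beside 0.40 with all libraries.

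Most of the 10 genes had a like order of libraries, and Adgre1 stood apart from several of them. plive-Tet1 1 was the highest library for 8 of the 10 genes, and among the highest 4 libraries for all 10. plive-Con 3 was the lowest for 7 genes and plive-Con 4 for the other 3. The share of counts from mitochondrial genes was 6.42%, 8.63%, 4.45% and 3.31% in plive-Con replicates 1 to 4, where the 10 genes summed to 1255, 1207, 673 and 781 CPM. It was 6.43%, 3.56%, 3.23% and 4.51% in plive-Tet1 replicates 1 to 4, with sums of 1822, 1401, 1038 and 1138 CPM. The highest share of each group lay in plive-Con 2, whose sum was just below that of plive-Con 1, and in plive-Tet1 1, whose sum was the highest. The part of this share in the levels was not tested. Pearson correlations of log2(CPM + 0.5) over the 8 libraries were positive in all 45 pairs, with a median of 0.74, from 0.14 for Cd63 with Adgre1 to 0.94 for Trem2 with Tyrobp. Within the groups, after each group's mean was removed, they were positive in all 45 pairs too, with a median of 0.69 and a lowest value of 0.03, for Cd9 with Adgre1. Adgre1 was also near 0 within the groups with Trem2 (0.04), Itgax (0.07), Tyrobp (0.09) and Cd63 (0.09). Its correlations within the groups were 0.59 with Gpnmb, 0.49 with Lpl, 0.38 with Fabp5 and 0.13 with Spp1. These values describe 8 libraries that every pair shares, with their depth and scaling. The median correlation of a gene with the other 9 was lowest for Adgre1, at 0.39, and highest for Trem2, at 0.87.

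**Figure D3:**
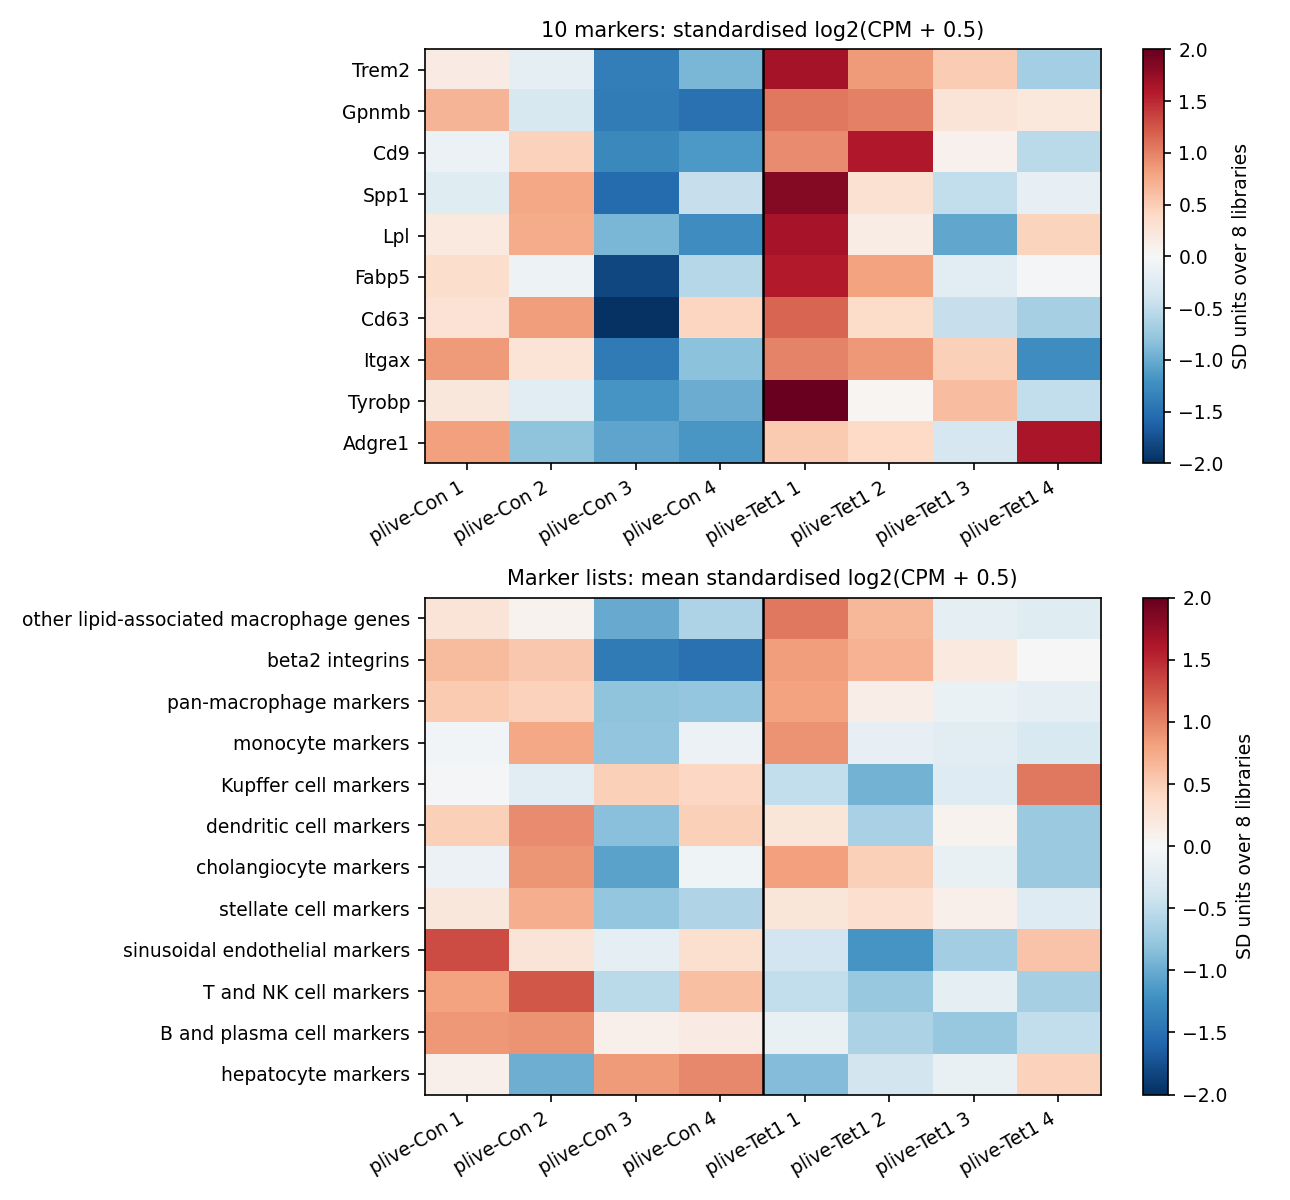
Top, log2(CPM + 0.5) of the 10 genes in each of the 8 libraries (columns), standardised per gene over the libraries; bottom, the mean of such values over the tested genes of 12 lists (colour, SD units; the vertical line parts plive-Con from plive-Tet1). plive-Con 3 and 4 are low and plive-Tet1 1 is high for most of the 10 genes and for the other lipid-associated macrophage genes. The Kupffer cell markers are above their mean in plive-Con 3 and 4 and are highest in plive-Tet1 4.

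The macrophage colony-stimulating factor receptor Csf1r, carried by macrophages in general, varied little. It measured between 123 and 146 CPM over the 8 libraries, a 1.19-fold range, and its means were 131 ± 7.13 and 133 ± 11.1 CPM (SD, n = 4 each, plive-Con first). Each of the 10 genes had a wider range, from 1.63-fold to 3.99-fold. So did the general macrophage markers Lyz2, at 2.76-fold, and Cd68, at 1.80-fold. Set against Csf1r within each library, which needs no scaling between libraries, Trem2 had 24.6 ± 3.76 counts per 100 of Csf1r with plive-Con and 35.1 ± 10.3 with plive-Tet1, and Gpnmb had 204 ± 85.5 and 339 ± 75.9 (SD, n = 4 each). The ratio of the group means ran from 1.04 for Cd63 to 1.66 for Gpnmb, and the groups overlapped for all 10 genes. Set against the summed general macrophage markers, most of whose counts were Lyz2, the ratio was 1.36 for Gpnmb and 1.1205 for Trem2. It was between 1.01 and 1.07 for Cd9, Lpl, Fabp5, Spp1 and Adgre1, and below 1 for Itgax (0.941), Tyrobp (0.935) and Cd63 (0.812). These ratios are given as values, with no test.

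Of the 10 general macrophage markers, 6 had a higher and 4 a lower value; their median log2 fold change was 0.01, and 0 passed the test (1 at an unadjusted p under 0.05). Lyz2, which encodes lysozyme, had 0.51 ± 0.22 and Cd68, a lysosomal protein of phagocytes, 0.29 ± 0.16 (SE). Summed, the list lay between 893 and 1391 CPM with plive-Con and between 1237 and 1775 CPM with plive-Tet1, with Lyz2 holding the most, at 632 ± 188 and 902 ± 208 CPM (SD, n = 4 each). The 10 lipid-associated macrophage genes summed to between 673 and 1255 CPM and between 1038 and 1822 CPM. Both sums were lowest in plive-Con 3 and 4 and highest in plive-Tet1 1. How far the amount of macrophages sets the level of the 10 genes was not tested.

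Some Kupffer cell markers had another order of libraries. Clec4f, a lectin found on Kupffer cells, measured 153, 165, 231 and 219 CPM with plive-Con and 134, 133, 171 and 161 CPM with plive-Tet1. Timd4, a receptor for dying cells, measured 8.57, 9.22, 13.4 and 11.5 CPM with plive-Con and 4.07, 5.40, 8.15 and 21.4 CPM with plive-Tet1. The plive-Con libraries 3 and 4, where most of the 10 genes were lowest, had the highest Clec4f of all 8, and plive-Tet1 1, where most were highest, and plive-Tet1 2 had the lowest Clec4f and Timd4. Of the 10 Kupffer cell markers, 2 had a higher and 8 a lower value, with a median of -0.12 and 0 past the test. At an edgeR unadjusted p under 0.05 were 3, of which 1 was higher and 2 lower, where 1.91% of all genes were higher and 2.16% lower. Cd163, a scavenger receptor for haemoglobin, measured 8.92, 9.94, 20.1 and 26.5 CPM with plive-Con and 4.25, 5.45, 8.76 and 8.58 CPM with plive-Tet1. All 4 plive-Tet1 values of Cd163 were below all plive-Con values, which 0.977% of all genes showed, and its log2 fold change was -1.27 ± 0.34 (SE), with an edgeR unadjusted p of 0.00256 and an adjusted p of 1.00. C6, a complement component, had 0.58 ± 0.19, with an edgeR unadjusted p of 0.0109. All 4 plive-Tet1 values of C6 were above all plive-Con values, which 1.3% of all genes showed. Clec4f had -0.36 ± 0.16 and Timd4 -0.12 ± 0.41. Summed, the Kupffer cell markers lay between 930 and 1097 CPM with plive-Con and between 893 and 1325 CPM with plive-Tet1. The highest sum was in plive-Tet1 4. Monocyte markers, 4 higher and 6 lower with a median of -0.02, had 0 past the test or at an unadjusted p under 0.05. Chil3 had -0.83 ± 0.44, and Itgam, named above among the integrins and also on this list, had 0.40 ± 0.24.

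Beside the 10 stood 20 other genes of the lipid-associated macrophage programme. Of these, 18 had a higher and 2 a lower value, at a median log2 fold change of 0.22 beside 0.01 for all genes, of which 52.0% were higher; 0 passed the test, and 1 had an unadjusted p under 0.05. That one was Syngr1, which encodes a vesicle membrane protein, with means of 2.42 ± 0.857 and 3.89 ± 1.09 CPM (SD, n = 4 each, plive-Con first) and a log2 fold change of 0.68 ± 0.30 (SE). Lipa, the lysosomal acid lipase, had 0.22 ± 0.13, the protease gene Ctss 0.35 ± 0.22 and the macrophage elastase gene Mmp12 0.30 ± 0.28. Plin2, which coats lipid droplets in hepatocytes as well, had 0.03 ± 0.16.

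Of 18 genes of TREM2 and DAP12 signalling, among them ligand, sheddase and related receptor genes as well as downstream ones, 14 had a higher and 4 a lower value, with a median of 0.10 and 0 past the test (1 at an unadjusted p under 0.05). Blnk, an adaptor of SYK signalling, measured 24.9, 22.7, 13.7 and 14.9 CPM with plive-Con and 31.3, 30.5, 22.6 and 24.3 CPM with plive-Tet1, with a log2 fold change of 0.51 ± 0.20 (SE, edgeR unadjusted p 0.0223, adjusted p 1.00). As for most of the 10 genes, plive-Con 3 and 4 were its lowest libraries. Lat2, an adaptor of the same kind, had 0.52 ± 0.28, and the kinase gene Syk 0.10 ± 0.12. Apoe, a lipoprotein ligand of TREM2 made mostly by hepatocytes, had -0.14 ± 0.16. Csf1r and Fcer1g were on this list and on that of general macrophage markers.

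Of 16 transcription factor genes known in macrophages, 7 had a higher and 9 a lower value, with a median of -0.04. Of these, 0 passed the test. At an edgeR unadjusted p under 0.05 were 1 higher and 1 lower, where 1.91% of all genes were higher and 2.16% lower. Pparg, a lipid-sensing nuclear receptor that hepatocytes also express in steatosis, measured 20.6, 19.8, 19.2 and 19.8 CPM with plive-Con and 24.9, 31.0, 24.5 and 23.2 CPM with plive-Tet1. All 4 plive-Tet1 values of Pparg were above all plive-Con values, which 1.3% of all genes showed. The log2 fold change of Pparg was 0.38 ± 0.13 (SE), with an edgeR unadjusted p of 0.00973 and an adjusted p of 1.00. Tfeb, a regulator of lysosome genes, had -0.40 ± 0.17 and its relative Mitf 0.23 ± 0.18.

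**Figure D4:**
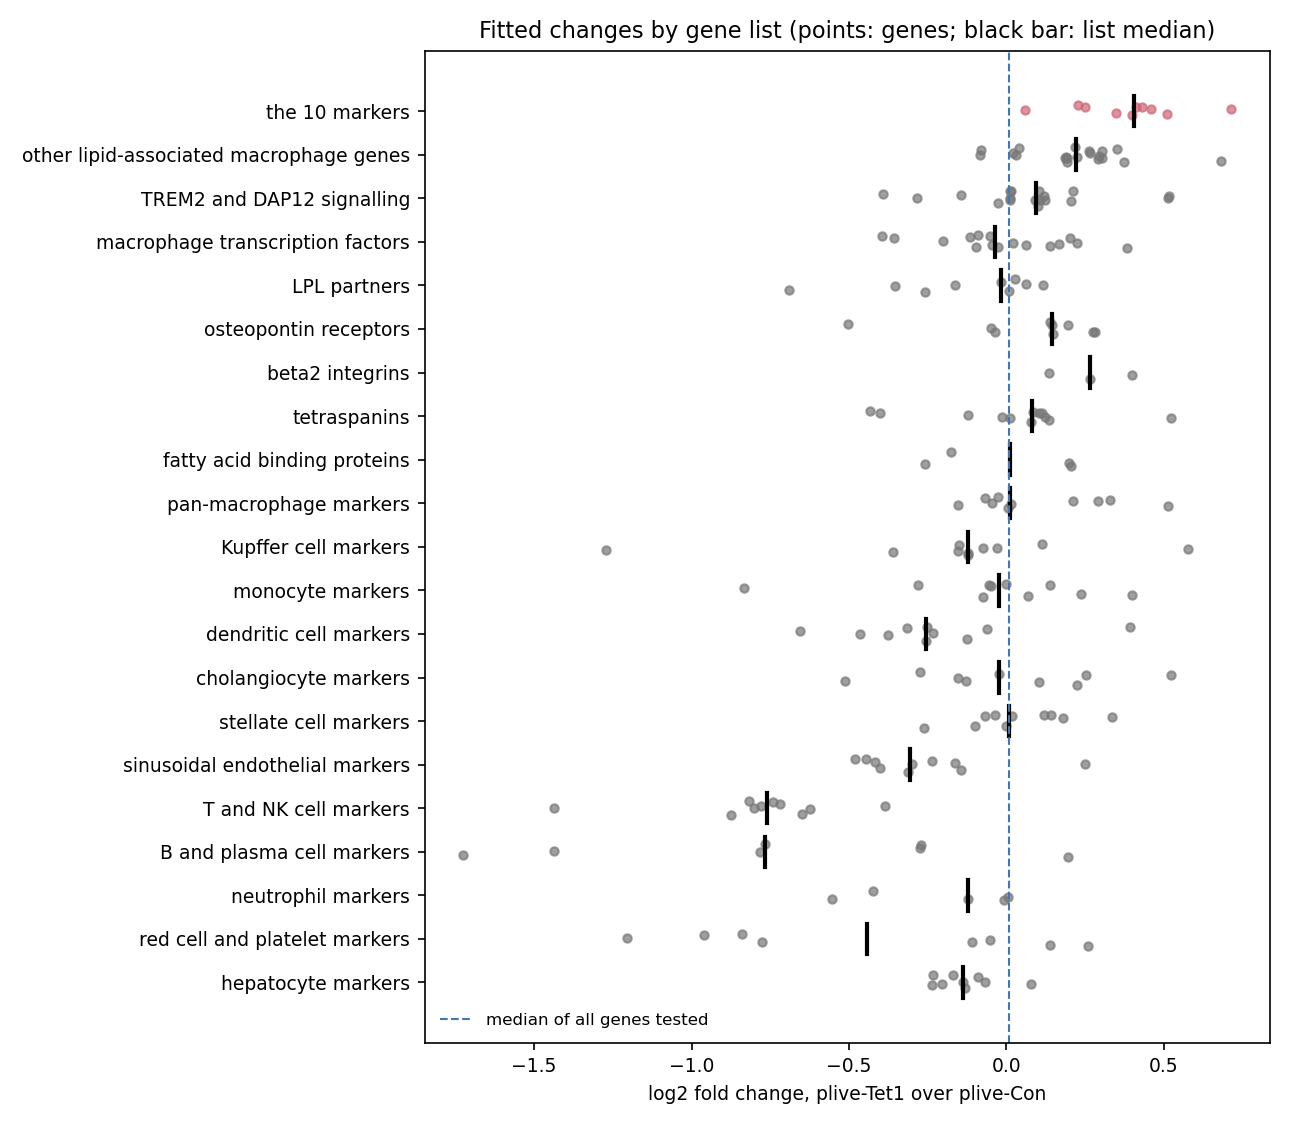
Horizontal axis, log2 fold change with plive-Tet1 set over plive-Con, of each tested gene of the 10 markers (red) and of 20 other lists (grey), with the list median as a black bar and the median of all genes tested, 0.01, as a dashed blue line. The 10 markers have a median of 0.40 and the other lipid-associated macrophage genes 0.22, while the T and NK cell markers have -0.76.

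T and NK cell markers were lower in 10 of 10 (median -0.76, 5 at an unadjusted p under 0.05), with Prf1 at -1.44 ± 0.34 and Klrk1 at -0.74 ± 0.28. B and plasma cell markers were lower in 6 of 7 (median -0.77, 4 under that value), with Igkc at -1.44 ± 0.47 and Jchain at -1.73 ± 0.60. Sinusoidal endothelial markers were lower in 9 of 10 (median -0.31, 4 under that value), with Egfl7 at -0.48 ± 0.15 and Gpr182 at -0.40 ± 0.17. Red cell and platelet markers were lower in 6 of 8 (median -0.44, 4 under that value), with Hba-a1 at -0.96 ± 0.21 and Hba-a2 at -1.20 ± 0.29, near-identical copies whose reads cannot be split with certainty. Neutrophil markers were lower in 4 of 5 (median -0.12, 0 under that value), with Retnlg at -0.55 ± 0.38 and S100a8 at -0.43 ± 0.46. Stellate cell markers were higher in 5 of 10 (median 0.01, 0 under that value), with Col3a1 at 0.34 ± 0.22 and Lrat at -0.26 ± 0.20. Hepatocyte markers were lower in 8 of 9 (median -0.14, 0 under that value), with Cyp2e1 at -0.24 ± 0.17 and Apoa1 at -0.23 ± 0.17. All of these are log2 fold changes with their SE, and edgeR with Benjamini-Hochberg adjustment called 0 genes of any of these lists. Of all genes tested, 1.91% were higher and 2.16% lower at an edgeR unadjusted p under 0.05. The T and NK cell markers summed to between 22.3 and 61.5 CPM with plive-Con and between 23.3 and 31.3 CPM with plive-Tet1. The lowest of these sums was in plive-Con 3. Prf1 had 7 to 35 counts and Jchain 11 to 140 counts per library.

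Per exonic length, the 10 genes spanned an order from Spp1 and Tyrobp down to Trem2 and Itgax. Over all 8 libraries the mean FPKM was 102 ± 48.3 for Spp1, 99.5 ± 18.3 for Tyrobp, 55.7 ± 22.5 for Gpnmb, 38.5 ± 10.1 for Cd9 and 28.0 ± 8.69 for Cd63 (SD, n = 8). It was 19.6 ± 9.01 for Lpl, 17.4 ± 4.65 for Adgre1, 15.5 ± 4.65 for Fabp5, 8.03 ± 2.59 for Trem2 and 7.30 ± 2.11 for Itgax (SD, n = 8). Tyrobp was above Gpnmb and Fabp5 above Trem2 in 8 of 8 libraries. Spp1 and Tyrobp were in this order in 3 of 8 libraries, Lpl and Adgre1 in 3 and Adgre1 and Fabp5 in 4, so these neighbours did not differ beyond their spread. The order rests on the exonic lengths of the table, from 667 bases for Tyrobp to 10478 for Lpl, with 4946 for Trem2.

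The 5 genes whose pattern over the 8 libraries was most like that of Trem2, by the root mean square difference of standardised log2(CPM + 0.5) among 14532 other genes, were Rufy1 (0.186), Ctsb (0.237), Cyb561 (0.2397), Niban2 (0.244) and Slc37a2 (0.248). Of the other 9 genes described here, Tyrobp was nearest to Trem2, at 0.325, and Adgre1 farthest, at 1.03. For Gpnmb the 5 were Arl11 (0.175), Fcgr1 (0.179), Gars (0.185), Blnk (0.212) and Sptlc2 (0.221), and the nearest of the 9 was Fabp5, at 0.476. A difference of 0 would mean the same shape over the libraries. These genes were chosen for their likeness, so the values are a description.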

How the data were processed

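Liver RNA of 4 plive-Con and 4 plive-Tet1 libraries was sequenced as paired reads, per the labels' protocols. The submitters' processing notes list cutadapt 1.9.1, HISAT2 2.2.1, HTSeq 0.6.1 and the build GRCm39. Not given in the sources used here: annotation release, strand setting, counting mode. The deposited table holds raw read counts per gene and library, per the file headers. It also holds FPKM, the count scaled by exonic length and library total, per the file headers.

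Genes were kept by filterByExpr (14533), scaled by TMM and tested two-sided with edgeR 4.0.16 (quasi-likelihood, group only) in R 4.3.3. Adjustment (Benjamini-Hochberg, threshold 0.05) covered every gene tested. The quasi-likelihood statistic gave SE and 95% intervals. CPM values are on the TMM-scaled sums of the tested genes. The test was checked on simulated counts, where it called 22.58% of genes set to change 1.5-fold. At 2-fold it called 65.28% and at 4-fold 98.39%.

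The 10 genes and the lists were chosen with earlier results of these data known. The 10 genes, the 2 smallest p of each list and 11 further genes were to be named; other named genes, such as Plin2, Mmp12 and Apoe, were chosen after their values were seen. One result under this rule is not reported here. Alternatives used limma 3.58.1 and DESeq2 1.42.0. Replicates differed by more than counting noise, with chi-square over degrees of freedom of 12.9 to 77.6. Start-region sequences are RefSeq's, on GRCm38.p6, and were matched by symbol.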

Additional observations from a re-analysis of the deposited data

Results flagged for a closer look

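One library stood far from the others of its group. Adgre1, which encodes F4/80, measured 67.3 CPM in plive-Con 1, while the next highest plive-Con library had 44.6 CPM; this gap took 0.857 of the range of the group, above Dixon's 95% critical value for 4 samples. Of 20 gene and group pairs examined, 1 was marked in this way, and chance marks about 1 in 20. Without plive-Con 1, the log2 fold change of Adgre1 was 0.60, in place of 0.40.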

How the results depend on the processing

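All 10 genes kept a positive log2 fold change under each of the 11 alternatives with all 8 libraries. With 1 library left out, the sign of Cd63 turned to -0.18 without plive-Con 3 and to -0.14 without plive-Tet1 1, and the other 9 genes stayed positive; its highest value was 0.21 without plive-Con 2. edgeR without a filter on low counts called 132 genes, 33 higher and 99 lower, and 1 of the 10, Gpnmb, with an adjusted p of 0.00525 (range over its alternatives up to 1.00). In that fit 28149 genes entered and the prior degrees of freedom were 799, against 6.87 with the filter. DESeq2 called 11 genes, none of them among the 10. The other alternatives called 0 genes. Over all genes tested, libraries of the same replicate number were not alike. Correlations of same-numbered deviations ran from -0.0323 to 0.0739, and no plive-Con library matched its own number best. The sums of the 10 genes, however, had the replicate order 1, 2, 4, 3 from highest to lowest in both groups. With the replicate block, edgeR called 0 genes and 0 of the 10, and the lowest adjusted p among them was 0.230, for Gpnmb. At an unadjusted p under 0.05 that fit had 5 of the 10, against 616 of 14533 genes. The 5 were Trem2, Gpnmb, Cd9, Fabp5 and Adgre1. The number of libraries, more than depth, limits the precision: Cd63, at 1.04-fold, had a 95% interval from 0.709 to 1.53.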
